A study of Macaca mulatta with 13 samples.

Results

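The cell division genes are 36 listed genes whose products copy the DNA or part the chromosomes. They were found by symbol among the 34628 genes of raw counts from single leukocytes of the rhesus macaque (Macaca mulatta) colon, and 35 of the 36 were found that way. Of these, 12 belong to S phase, 20 to mitosis, and 3 (STMN1, TUBB and HMGB2) are also used outside division. DUT, which removes dUTP so that it is not built into DNA, has no symbol in the file. Its values come from the gene ID that the table of gene names gives for it and are left out of every count below.

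Some of the macaques had received an allogeneic transplant of blood stem cells (allo-HCT) and modelled acute GVHD, graft-versus-host disease, where donor-derived T cells injure the host's own organs, and the others were untransplanted and healthy. Per the labels' protocols, viable leukocytes positive for CD45 and negative for a CD45 stain marked IVas were sorted from 4 thawed colon samples of each cohort, and 2 of the GVHD samples were split into host and donor cells by the MHC protein MAMU-A001. The labels name 13 libraries: 4 of host cells, 2 of donor cells (called graft below), 3 of host and donor cells combined, and 4 of healthy controls. The sources used here give no ages, conditioning or time of sampling, and do not say which of the 10x 3′ kits, v2 or v3, made which library.

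The barcodes carry library numbers (1 to 13), which no source used here ties to a label. Taking the numbers in the order of the labels gives 1, 6 and 7 as host, 2 and 5 as graft, 3, 8, 9 and 11 as healthy, and 10, 12 and 13 as combined GVHD. These groups are inferred, so each library's value is given under its number and no test, mean or error is given between inferred groups. Numbers 4 and 6 share 5323 barcodes, and number 4 was left out. Other pairs within 1 to 7 share 6 to 55 barcodes, pairs within 8 to 13 share 1 to 10, and pairs across share 0 to 3. Groups were therefore set side by side only within 1 to 7 or within 8 to 13. That left 20567 cells in 12 libraries, with a median of 3412 UMIs (unique molecular identifiers, each marking 1 captured RNA molecule) per cell. The deposited barcodes of a library held from 3205412 to 19655788 UMIs.

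A cell that divides first raises genes for making nucleotides and for loading and running the replication fork, and then genes that condense, align and part the chromosomes. Most lymphocytes in the gut wall are not dividing at any moment. B cells in germinal centres, which gut lymphoid follicles hold, are known for very rapid division, and plasma cells, which secrete antibody, have left the cell cycle. T cells divide when they meet antigen, and alloreactive T cells divide strongly in GVHD.

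Classes were gated without any of the members. T cells had at least 3 UMIs of CD3D, CD3E and CD3G together (11234 cells), B cells at least 2 of MS4A1 and CD79A (3780 cells), and plasma cells at least 1% of their UMIs from JCHAIN (1241 cells). Another 2549 cells (12.4%), with a median of 10917 UMIs, met more than 1 gate and were left out, and 1763 met none. As a check that shares genes with the gates, the 8 B-cell markers summed to 4128 in B cells against 40.2 in T cells, and the 10 T-cell markers to 4820 in T cells against 266 in B cells, in CPM. A level below is in CPM, its UMIs divided by the UMI total of the class in that library and rescaled. Levels are compared for 1 gene between cells, not between genes.

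Most of the division genes were higher in B cells than in T cells in a fit over libraries, with libraries 2 and 12 going the other way for some. Both classes had 20 cells or more in 6 libraries, and 30 of the 35 members were higher in B cells there (edgeR's quasi-likelihood test with library as a block, adjusted p under 0.05 over all 8894 genes tested), and none was lower. Over all genes tested, 16.9% were higher in B cells, 19.7% lower and 36.6% either. By role, 9 of 12 S-phase, 19 of 20 mitosis and 2 of 3 broad members were higher. PCNA, CENPF and HMGB2 did not pass, and TK1 and GINS2 held too few UMIs to test. The median log2 fold change was 2.53 over the 33 members tested and -0.01 over all genes.

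The smallest adjusted p belonged to BUB1B, a kinase of the checkpoint that delays chromosome separation. Its level in B cells was 7.21, 13.1, 12.2, 28.0, 27.1 and 6.23 CPM in libraries 2, 3, 8, 9, 11 and 12, against 2.63, 2.47, 0.578, 0.812, 1.74 and 0.972 CPM in their T cells. B cells were higher in 6 of 6 libraries, with a log2 fold change of 3.35 ± 0.38 (SE; edgeR, adjusted p = 3.21e-05). Each SE of a fold change in this text was derived from the F statistic of the test, which gives no SE itself. CCNB1, the cyclin that turns on CDK1 at entry into mitosis, was at 14.4, 136, 35.5, 91.0, 89.2 and 6.23 CPM in B cells of the same libraries and at 12.9, 10.7, 3.47, 4.06, 2.90 and 5.23 CPM in T cells. It was also higher in B cells in 6 of 6, though by little in libraries 2 and 12, with a log2 fold change of 3.19 ± 0.50 (SE; edgeR, adjusted p = 3.63e-04).

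MKI67, the Ki-67 protein that coats mitotic chromosomes, was higher in B cells in 4 of the 6 libraries. Its B-cell level was 114, 119, 235 and 283 CPM in libraries 3, 8, 9 and 11, against 28.8, 4.04, 13.8 and 12.2 CPM in T cells. In libraries 2 and 12 the order was the other way round, with 14.4 and 0 CPM in B cells and 61.3 and 17.0 CPM in T cells. The fitted log2 fold change was 2.53 ± 0.75 (SE; edgeR, adjusted p = 0.02). The call was lost without library 8, 9 or 11 (edgeR, adjusted p = 0.0829, 0.0961 and 0.0965).

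Libraries 2 and 12 had the fewest B cells of the 6, 65 and 41, against 566 to 1450 in the others. They were inferred graft and inferred combined GVHD, while libraries 3, 8, 9 and 11 were all inferred healthy. Inferred cohort and number of B cells therefore cannot be told apart here. The 20 mitosis members summed to 231 and 74.8 CPM in their B cells, against 1599.6, 532, 1488 and 1668 CPM in libraries 3, 8, 9 and 11. In libraries 2 and 12 these sums were below those of their own T cells, 409 and 153 CPM. The S-phase sum was also lower in B than in T cells of library 2 (350 against 574 CPM), and higher in library 12 (281 against 164 CPM). The germinal centre list (7 of 8 markers matched) was low in the same libraries: it summed to 50.5 and 93.5 CPM in libraries 2 and 12, with 2 and 3 of the 7 markers above 0, against 136, 335, 377 and 428 CPM with all 7 above 0 in libraries 3, 8, 9 and 11. Among those 4 it did not follow the mitosis sum, since library 3 had the lowest marker sum. Its part in the result was not tested. Without libraries 2 and 12, 33 members were higher in B cells.

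The other mitosis members are given next. CCNB2, another mitotic cyclin, was higher by 3.38 ± 0.64 (log2, SE). BUB1, a partner of BUB1B, was higher by 3.35 ± 0.57. NUSAP1, which bundles spindle microtubules, was higher by 3.31 ± 0.59, and BIRC5 (survivin), which guides AURKB to the centromere, by 3.21 ± 0.65. AURKA and AURKB, kinases of the spindle pole and the centromere, were higher by 2.98 ± 0.50 and 2.97 ± 0.71. CDC20, which starts the destruction of cyclin B, was higher by 3.15 ± 0.57, and PLK1, a kinase active through mitosis, by 2.96 ± 0.51. KIF23, a motor of the dividing midzone, was higher by 2.96 ± 0.53. TOP2A, which untangles DNA, was higher by 2.73 ± 0.58, CDK1 by 2.19 ± 0.53 and TPX2, which seeds spindle microtubules, by 2.21 ± 0.57. CENPF, a protein of the outer kinetochore, was the exception at 0.84 ± 0.43 (edgeR, adjusted p = 0.152), with B-cell levels from 18.7 to 281 CPM and T-cell levels from 44.8 to 85.2 CPM.

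In S phase, the MCM helicase that unwinds DNA was higher in B cells in all 6 of its subunits. The log2 fold changes ran from 1.87 ± 0.43 (SE) for MCM6 to 2.50 ± 0.44 for MCM2, with MCM7 at 2.42 ± 0.43 and MCM4 at 2.05 ± 0.39. RRM2 and TYMS, which supply deoxynucleotides and thymidylate, were higher by 2.81 ± 0.74 and 2.92 ± 0.75. RRM1, the partner of RRM2 that is also kept in resting cells, was higher by 0.66 ± 0.23 (edgeR, adjusted p = 0.043). PCNA, the sliding clamp of DNA polymerase, did not pass at 0.78 ± 0.33 (edgeR, adjusted p = 0.0865), with a median of 106 CPM in B cells and 53.6 CPM in T cells. Of the broad members, STMN1 and TUBB, which regulate and build microtubules, were higher by 1.62 ± 0.49 and 1.11 ± 0.32, and HMGB2, a chromatin protein, did not pass at 1.06 ± 0.42 (edgeR, adjusted p = 0.072). DUT was higher by 1.01 ± 0.27 (edgeR, adjusted p = 0.0112). The calls of RRM1, STMN1 and TUBB were lost on leaving out any of libraries 3, 8, 9 and 11, and that of TPX2 without library 9 or 11.

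Other genes of the cycle from lists outside the members were counted too. Of 41 matched S-phase genes 28 could be tested and 24 were higher in B cells, among them GINS1 (2.04 ± 0.26, log2, SE) and FEN1 (2.21 ± 0.39), both used at the replication fork. Of 59 matched mitosis genes 39 could be tested and 34 were higher, among them NCAPH, a condensin subunit (1.85 ± 0.21), and CENPM of the centromere (4.07 ± 0.51). None of either list was lower. Of 17 genes of arrest or the choice to enter the cycle, 5 were higher and 5 lower. CCNG2 (1.44 ± 0.17), CDK4 (1.09 ± 0.16) and CDKN2C (1.85 ± 0.35), an inhibitor of CDK4, were higher, and RBL2, a repressor of cycle genes in resting cells, was lower (-1.63 ± 0.24). RB1 was also higher (1.08 ± 0.18), and MYC was also lower (-0.91 ± 0.23).

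The count for B cells held only with the cells of more than 1 gate left out. With those cells kept, and assigned to T cells wherever the T gate was met, 0 members were higher in B cells at adjusted p under 0.05. MKI67 then had a log2 fold change of 0.01 and BUB1B one of 0.79. In the cells of several gates the mitosis members summed to 908, 217, 1387 and 1173 CPM in libraries 3, 8, 9 and 11, and to 14.7 to 226 CPM in the other 6 libraries with at least 20 such cells.

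**Figure D1:**
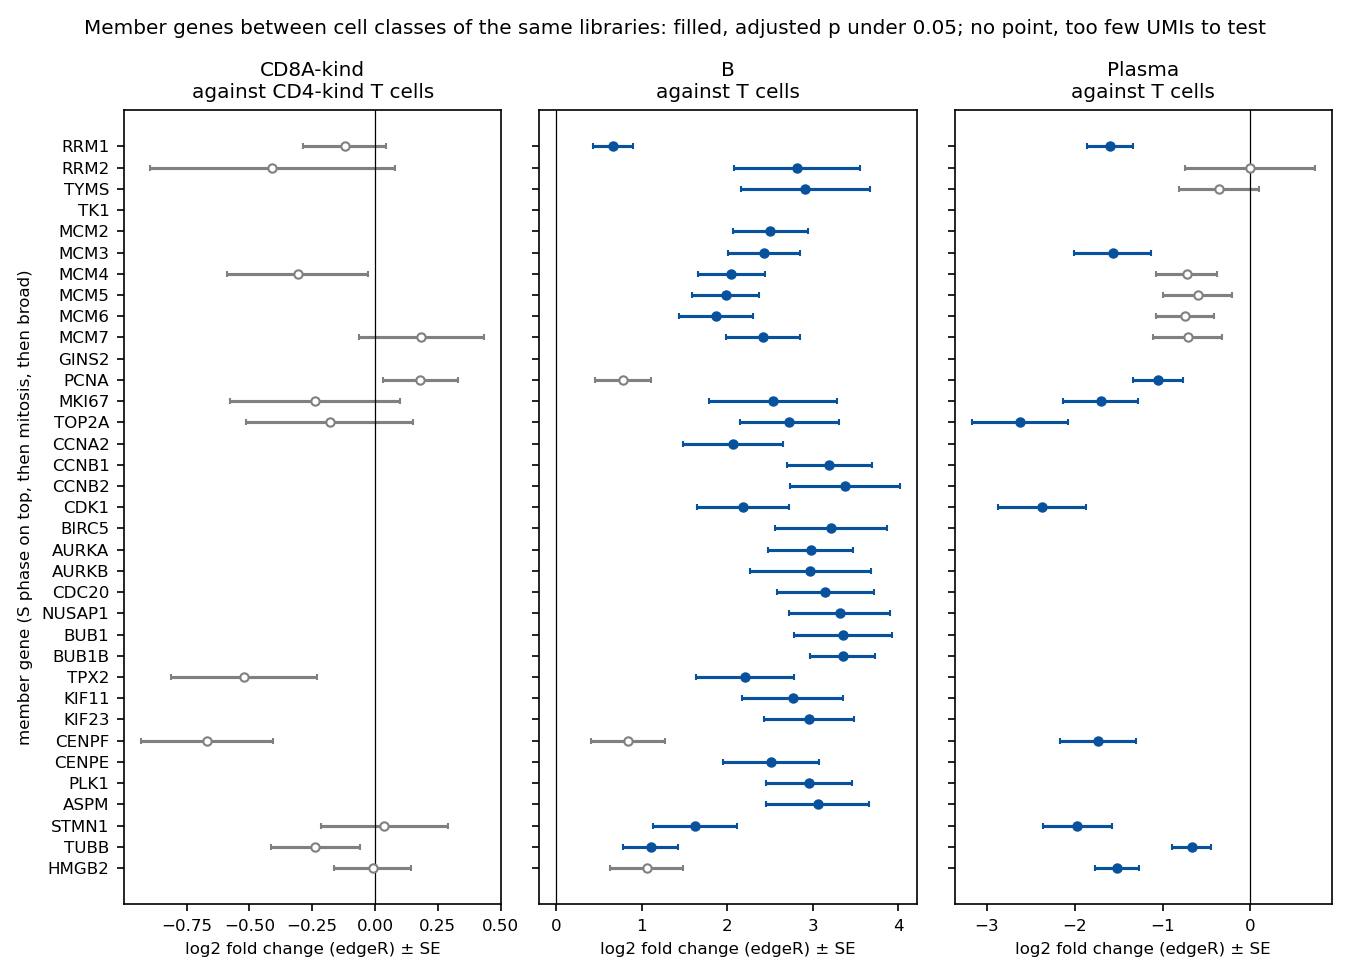
Log2 fold change (x axis, edgeR, bars are ± SE derived from the F statistic) of each member for CD8A-kind against CD4-kind T cells (9 libraries), B against T cells (6 libraries) and plasma against T cells (7 libraries). Filled points passed an adjusted p under 0.05, open points did not, and members with no point held too few UMIs to test: 0, 30 and 10 members are filled in the 3 panels.

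**Figure D2:**
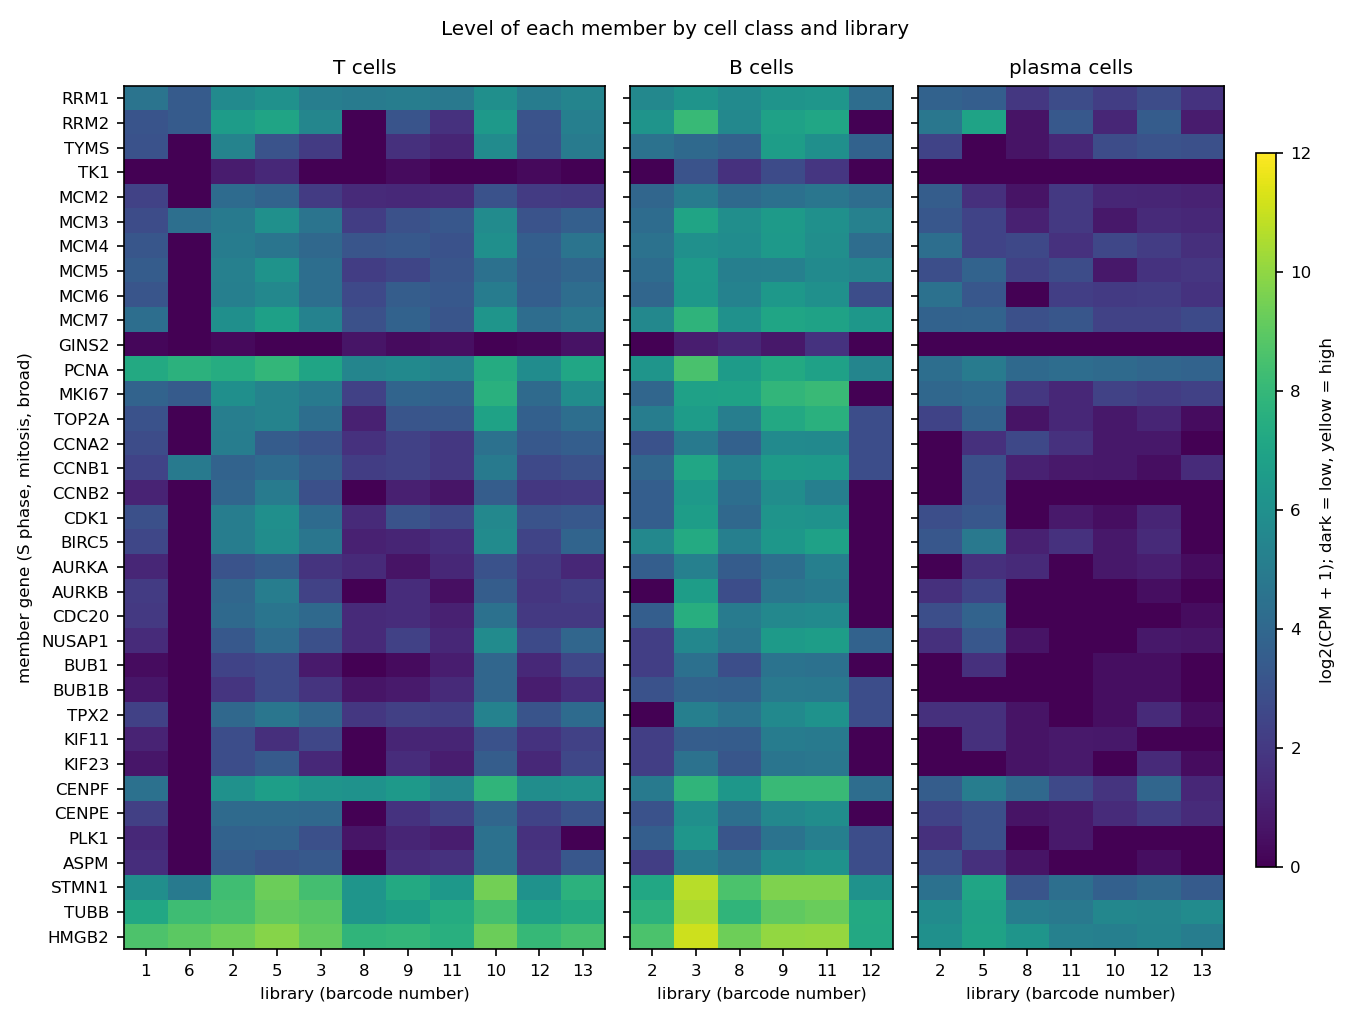
Level of each of the 35 members, as log2(CPM + 1) in colour, in T, B and plasma cells of each library with at least 20 cells of the class (columns, by barcode number). In B cells libraries 3, 8, 9 and 11 are bright in most rows and libraries 2 and 12 are dark in most mitosis rows, and in T cells libraries 2, 5 and 10 are the brightest.

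Plasma cells were lower than T cells in most of the members that could be tested. Of the 16 members with enough UMIs to test in 7 libraries, 10 were lower in plasma cells and none was higher (edgeR's quasi-likelihood test, library as a block, adjusted p under 0.05). Of all 6892 genes tested, 31.1% were lower, 25.4% higher and 56.5% either. The other 19 members held too few UMIs for the test, 16 of them mitosis members. The median log2 fold change was -1.29 over the 16 members and -0.11 over all genes. These fitted values are on a scale that centres the bulk of genes. On plain CPM the median of all genes tested was -1.42 (log2), and that of the members tested was -2.65. The 8 plasma-cell markers alone summed to 61295 CPM in plasma cells. The CPM values below stand against that shift.

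TOP2A was at 4.29, 13.1, 0.559, 0.705, 1.5, 1.37 and 0.301 CPM in plasma cells of libraries 2, 5, 8, 10, 11, 12 and 13, against 34.3, 40.4, 1.16, 119, 8.30, 11.8 and 18.9 CPM in T cells. It was lower in plasma cells in every one of the 7 libraries, with a fitted log2 fold change of -2.62 ± 0.55 (SE; edgeR, adjusted p = 8.02e-04). CDK1 (-2.38 ± 0.50), STMN1 (-1.97 ± 0.39), CENPF (-1.73 ± 0.43), MKI67 (-1.70 ± 0.43), RRM1 (-1.60 ± 0.26), MCM3 (-1.57 ± 0.44), HMGB2 (-1.52 ± 0.25), PCNA (-1.05 ± 0.29) and TUBB (-0.67 ± 0.22) were also lower. With libraries of at least 50 cells only 5 members were lower, and the calls lost included those of PCNA and TUBB. With gates on thinned cells the calls of MKI67, MCM3 and TOP2A were lost. MCM4, MCM5, MCM6, MCM7, TYMS and RRM2 did not pass, with fitted values from -0.74 to -0.01.

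RRM2, a subunit of the enzyme that makes deoxynucleotides, had a plasma level that varied with the library. It was at 122 CPM in library 5 and 25.7 CPM in library 2, both inferred graft, and at 10.2 CPM or below in the other 5. The mitosis sum in plasma cells was likewise 166 CPM in library 5 (33 cells) and 70.7 CPM in library 2 (45 cells), against 11.1 to 32.8 CPM in the other 5. Of the S-phase genes outside the members, 17 could be tested in plasma against T cells. Of these 7 were lower and 1 was higher (GINS1, 1.48 ± 0.33, log2, SE). Of the mitosis genes outside the members, 19 could be tested, with 7 lower and 1 higher (KIF22, 2.03 ± 0.29). The median log2 fold changes were -0.52 and -0.20, and of all genes tested 31.1% were lower and 25.4% higher. On the arrest list 6 genes were higher and 8 lower in plasma cells. CDKN1A (2.80 ± 0.23, log2, SE) and CDKN2C (2.35 ± 0.31), inhibitors of cycle kinases, and BTG2 (2.39 ± 0.17), which restrains growth, were higher, and CCND3, a cyclin of cycle entry, was lower (-2.45 ± 0.18). CDK4, which CDKN2C inhibits, was also higher (1.57 ± 0.19), and BTG1 was also lower (-1.12 ± 0.16).

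No member passed the test between CD8A-kind and CD4-kind T cells. The kinds were gated within T cells by a UMI of CD8A with none of CD4 (3658 cells) and the reverse (1936 cells), and 5310 T cells had a UMI of neither. Pooled over libraries, every myeloid marker of the list was higher in CD4-kind than in CD8A-kind cells. S100A8 was at 1130 against 400 CPM, and LYZ at 597 against 196 CPM. The part of myeloid RNA in this comparison was not tested. In 9 libraries, 0 of the 12 members with enough UMIs to test passed (edgeR's quasi-likelihood test, library as a block), and 1 had an unadjusted p under 0.05 in edgeR and 1 in DESeq2, where 0 passed too. Over all 5357 genes tested, 4.13% were higher, 4.89% lower and 9.02% either. The median log2 fold change was -0.21 over the 12 members and 0.02 over all genes. The other 23 members, 16 of them mitosis members, held too few UMIs to test.

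The member nearest to the threshold was CENPF. Its level was 40.7, 65.2, 29.6, 139, 75.5, 44.4, 36.8, 37.8 and 57.0 CPM in CD8A-kind cells of libraries 1, 2, 3, 5, 8, 9, 11, 12 and 13, and 20.8, 73.5, 120, 92.5, 125, 126, 51.8, 185 and 228 CPM in CD4-kind cells. CD4-kind cells were higher in 7 of 9 libraries, and libraries 1 and 5 went the other way. The fitted log2 fold change was -0.67 ± 0.26 (SE; edgeR, adjusted p = 0.135), and it passed without library 1 (-0.86, edgeR, adjusted p = 0.0283) or without library 5 (-0.88, edgeR, adjusted p = 0.0398). With no filter on low counts CENPF (-0.64 ± 0.14, edgeR, adjusted p = 2.69e-04) and TYMS (-0.95 ± 0.24, edgeR, adjusted p = 0.00325) passed.

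The sums differed between the kinds in opposite directions in different libraries. In library 12 the 20 mitosis members summed to 542 CPM (exact Poisson 95% interval 483 to 606) in 124 CD4-kind cells and to 128 CPM (118 to 138) in 1252 CD8A-kind cells. In library 5 they summed to 412 CPM (353 to 477) in 101 CD4-kind cells and to 863 CPM (798 to 930) in 154 CD8A-kind cells. CD4-kind cells had the higher sum in libraries 2, 3, 8, 9, 11 and 12, and CD8A-kind cells in libraries 1, 5 and 13. Outside the members, KIFC1, a mitotic motor, was higher in CD8A-kind cells (0.85 ± 0.16, log2, SE), and CDKN1B (-0.47 ± 0.12) and TOB1 (-0.46 ± 0.12), which hold cells at rest, were lower.

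In T cells the members varied widely between libraries. Across the 11 libraries with at least 20 T cells, the sum of the 20 mitosis members ran from 39.3 CPM (library 6) to 939.7 CPM (library 10), and that of the 12 S-phase members from 103 CPM (library 8) to 777 CPM (library 5). Fewer dividing cells and less RNA per dividing cell cannot be told apart in these sums. Intervals on sums and levels are exact Poisson intervals that cover counting error only, and so do those on shares.

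Set by inferred group, graft T cells were higher than host T cells. The mitosis sum was 409 CPM (396 to 422) in library 2 and 534 CPM (505 to 564) in library 5, both inferred graft, against 88.4 CPM (81.1 to 96.1) in library 1 and 39.3 CPM (10.7 to 101) in library 6, both inferred host. The S-phase sum was 574 and 777 CPM against 247 and 245 CPM. Graft and host did not overlap in either sum.

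Of the 35 members, 32 were higher in both graft libraries than in both host libraries, beside 20.4% of the 7207 genes with a mean of at least 5 CPM (14.3% lower). Of the 28 members past that level, the filter of that background, 26 were higher and 2 overlapped. A gene could pass this filter through the graft libraries alone. Most mitosis members, TOP2A and CCNB2 among them, were at 0 CPM in library 6. The 3 of all 35 that overlapped were GINS2, PCNA and CCNB1. Host cells were few: library 6 had 34 T cells with 4 UMIs of the mitosis members in all, and the third host library had 3 T cells and gave no value. Library 1 held 1636 T cells. There, MKI67 was at 13 CPM, against 61.3 CPM in library 2 and 40.0 CPM in library 5, and RRM2 was at 7.81 CPM against 98.3 and 127 CPM.

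PCNA, the clamp, was at 153 CPM in library 1 and 206 CPM in library 6, and at 169 and 243 CPM in libraries 2 and 5, so that host and graft overlapped. Markers of other cells also moved with these libraries. The 8 myeloid markers summed to 4088 CPM in T cells of library 1 (all 8 above 0), 0 CPM in library 6, 6.5 CPM in library 2 and 1879 CPM in library 5, and the 7 matched of 8 epithelial markers to 307 CPM in library 1 (7 above 0) and 1139 CPM in library 6 (4 above 0), against 3.6 and 1.6 CPM in the graft libraries. Their part in the result was not tested.

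Combined GVHD T cells were set against healthy T cells within numbers 8 to 13. The mitosis sum was 939.7 CPM (829 to 1061), 153 CPM (145 to 162) and 255 CPM (233 to 278) in libraries 10, 12 and 13, against 91.9 CPM (78.1 to 107), 147 CPM (135 to 160) and 99.1 CPM (90.7 to 108) in libraries 8, 9 and 11. Libraries 10 and 13 stood above all 3 healthy libraries by more than counting error, while the intervals of library 12 and library 9 overlapped. The S-phase sum was 619, 164 and 341 CPM against 103, 139 and 112 CPM.

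Of the 35 members, 23 were higher in all 3 GVHD libraries than in all 3 healthy ones and none was lower, beside 14.7% of 8011 genes higher and 8.09% lower. Of the 24 members with a mean of at least 5 CPM, the filter of that background, 18 were higher and 6 overlapped. A gene could pass this filter through the GVHD libraries alone. The 23 were 7 S-phase members, 15 mitosis members and HMGB2. MKI67 was at 194, 17.0 and 57.7 CPM in libraries 10, 12 and 13 against 4.04, 13.8 and 12.2 CPM in libraries 8, 9 and 11. TYMS was at 54.0, 7.05 and 30.8 CPM against 0, 2.16 and 1.35 CPM. RRM1, RRM2, MCM3, CENPF, PLK1, STMN1 and TUBB were among the 12 that overlapped.

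That count depended on which cells were called T cells. Where the T gate had to be met by cells thinned to 1500 UMIs as well as at full depth, 9 members were higher and 2 lower, and the mitosis sum of library 12 was 123 CPM, below the 167 CPM of library 9. With T cells that had no UMI of MS4A1 or CD79A, 17 were higher and 1 lower, with 119 CPM in library 12 and 142 CPM in library 9. With gates on thinned cells 4 were higher and 2 lower. With cells of several gates kept, 0 were higher and 14 lower, and the mitosis sums of libraries 8, 9 and 11 were 226, 457 and 691 CPM against 225, 124 and 130 CPM in libraries 10, 12 and 13.

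In each of the first 3 of these 4 gates, libraries 10 and 13 had the highest 2 mitosis sums of the 6, and library 12 lay among the healthy libraries. Library 10 had only 116 T cells. The 8 B-cell markers summed to 32.4, 26.6 and 38.8 CPM in T cells of libraries 10, 12 and 13 and to 51.4, 59.8 and 49.0 CPM in libraries 8, 9 and 11, and the 8 myeloid markers to 1852 CPM in library 12 and to 9.2 CPM or less in the other 5. Their part was not tested.

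By kind, 19 members, and 14 of the 23 past 5 CPM, were higher in GVHD than in healthy CD8A-kind cells and none was lower (background 13.9% higher and 5.07% lower), over 3 libraries each. Library 10 had too few CD4-kind cells. Of the 35 members, 5 (MCM7, PCNA, TPX2, CENPF and CENPE) were higher in CD4-kind cells of libraries 12 and 13 than in those of libraries 8, 9 and 11. All 5 were among the 21 past 5 CPM, of which the other 16 overlapped (background 15.4% higher and 10.9% lower). Of the 14 members below that level, 1 was lower and 13 overlapped. Library 3, inferred healthy but in the other barcode set, had a T-cell mitosis sum of 275 CPM, above libraries 8, 9, 11 and 12 by more than counting error, while its interval (246 to 306) overlapped that of library 13. It also had the highest B-cell marker sum in T cells, 181 CPM, and without T cells that had a UMI of MS4A1 or CD79A its mitosis sum was 201 CPM.

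**Figure D3:**
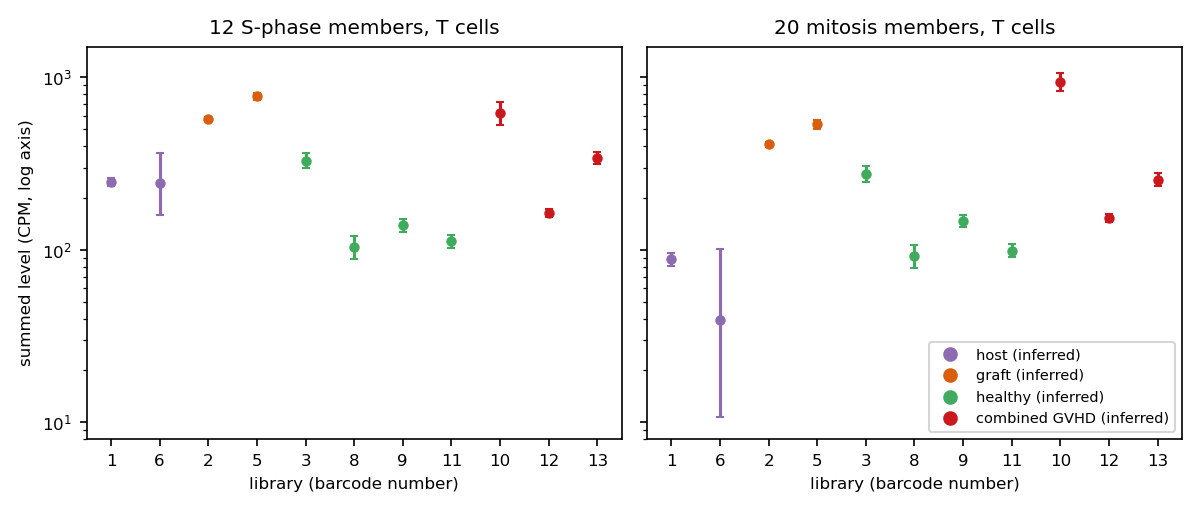
Summed level of the 12 S-phase and the 20 mitosis members in T cells (y axis, CPM, log scale) of each library (x axis, barcode number), with bars for the exact Poisson 95% interval and colours for the inferred group. Libraries 2, 5 and 10 are the highest in both panels, and the mitosis intervals of libraries 9 and 12 overlap.

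The share of cells with several members was highest in B cells and lowest in plasma cells, pooled over libraries. Each cell was thinned to 1500 UMIs, which no cell fell short of, and counted when at least 2 of the 20 mitosis members had a UMI. This was the case in 2.48% of T cells (exact binomial 95% interval 2.20 to 2.79), 18.5% of B cells (17.3 to 19.8) and 0.564% of plasma cells (0.227 to 1.16). Without thinning the shares were 5.32%, 28.9% and 2.18%. At least 2 of the 12 S-phase members had a UMI in 3.81%, 17.8% and 0.725% of the thinned cells. The median depth before thinning was 9506 UMIs in plasma cells and 3102 in T cells. Because of the shift on plain CPM given above, 1500 UMIs of a plasma cell sample most genes less deeply than those of a T cell, so the plasma share is not a measure of background.

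Library 3 held most of the B cells counted: 427 of its 1450 B cells (29.4%, 27.1 to 31.9), against 15% in library 9, 14% in library 11 and 7.23% in library 8. In B cells of libraries 2 and 12 it was 2 of 65 and 0 of 41, which allows a share of up to 8.60% in library 12 by the exact interval. Among T cells the mitosis share was 8.30% (6.14 to 10.9) in library 5, 7.76% (3.61 to 14.2) in library 10 and 5.27% (4.36 to 6.32) in library 2, and 0.856% (0.469 to 1.43) in library 1. It was 2.77% (1.72 to 4.20) in library 13 and 0.974% (0.604 to 1.48) in library 12, against 0.169%, 1.62% and 1.25% in libraries 8, 9 and 11, so that GVHD and healthy libraries overlapped in this measure.

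**Figure D4:**
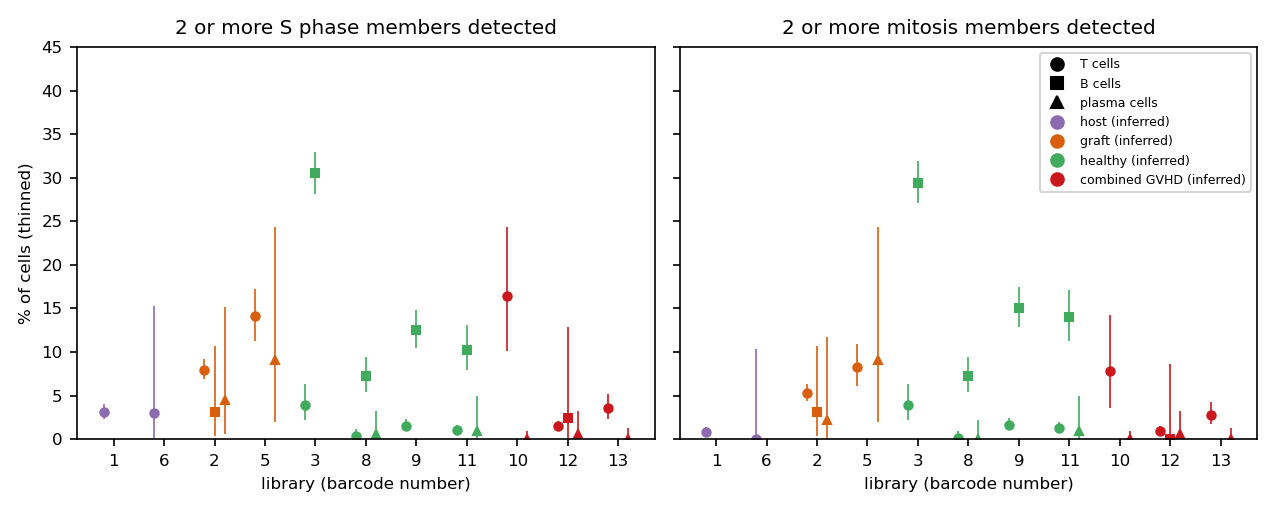
Percent of cells thinned to 1500 UMIs in which at least 2 S-phase members (left) or 2 mitosis members (right) had a UMI, by library (x axis, barcode number), with exact binomial 95% intervals. Shapes mark T, B and plasma cells and colours the inferred group. B cells of library 3 are the highest at 29.4% for mitosis, and plasma cells lie near 0 except in libraries 2 and 5, with 45 and 33 cells.

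The overlap of cells with S-phase members and cells with mitosis members was partial. Of 672 B cells with at least 2 S-phase members, 390 (58.0%) also had at least 2 mitosis members, and of 428 such T cells 127 did (29.7%). Among the other cells of each class the mitosis share was 10.0% in B cells and 1.41% in T cells.

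The members differed in how far their RNA was held by such cells. For each gene, the share of its UMIs was taken that lay in thinned cells with at least 2 other mitosis members. In T cells the share was 86.2% (68.3 to 96.1) for PLK1, 83.0% (70.2 to 91.9) for ASPM, which works at the spindle pole, 74.1% (60.3 to 85.0) for CCNB2 and 66.1% (60.3 to 71.6) for RRM2. It was 14.7% (12.5 to 17.2) for CENPF, 12% (10.4 to 13.7) for PCNA, 9.55% (7.15 to 12.4) for RRM1 and 9.48% (6.04 to 14) for MCM6. For all 7460 genes with at least 100 UMIs in thinned T cells the median was 2.67% and the 95th percentile 5.75%. The members thus spread from PLK1 and ASPM, mostly inside such cells, to PCNA, RRM1 and MCM6, mostly outside them.

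CENPF was nearer to the other mitosis members in B cells, though still among the lowest. There its share was 73.9% (71.0 to 76.6), near that of BIRC5 (77.2%) and below that of TOP2A (83.6%). Only CCNB1 (59.7%) and BUB1B (64.3%) were lower among the mitosis members, while PLK1 was at 93.8% and PCNA at 48.7%. Cells with at least 2 mitosis members other than CENPF were 16.8% of B cells and 1.99% of T cells. The median of 4852 genes in B cells was 19.6%. Pooled over libraries, CENPF had the lowest share of the mitosis members in T cells. By library its share ran from 0% to 36.7% over 10 libraries, and that of TPX2 was 12.5% and 42.4% in the 2 libraries with enough UMIs. It was also the 1 mitosis member that did not pass in B against T cells. HMGB2 and TUBB were at 20.3% and 21.1% in T cells and at 66.9% and 61.5% in B cells. The share follows from counts in the same cells and carries no test.

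**Figure D5:**
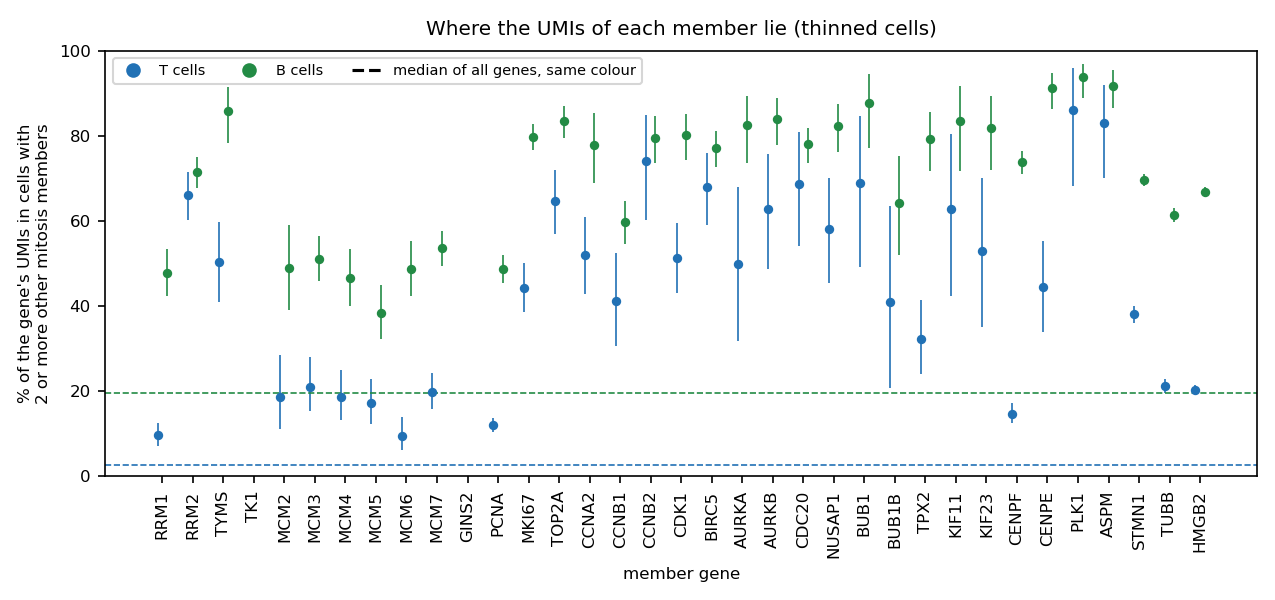
Percent of each member's UMIs (y axis) that lay in thinned cells with at least 2 other mitosis members, in T and B cells, for members with at least 20 UMIs, with exact binomial 95% intervals. Dashed lines mark the median of all genes, 2.67% in T cells and 19.6% in B cells, and CENPF, RRM1, MCM6 and PCNA are the lowest points in T cells.

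The genes most like the members in T cells by this measure, outside the mitosis members that define it and with at least 100 UMIs, were RRM2 (66.1%), NUF2 (52.9%), CDKN3 (52.3%), TYMS (50.4%) and PCLAF (46.2%), over 11234 cells. In B cells they were SGO2 (92.9%), HMMR (92.9%), a gene without a symbol (92.6%), DLGAP5 (91.1%) and GTSE1 (89.8%), over 3780 cells.

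Of the members, 8 were compared between B cells by their UMIs of germinal centre markers. In 881 B cells with at least 2 UMIs of the germinal centre list, MKI67 was at 363 CPM and 37.5% had at least 2 mitosis members after thinning. In 2031 B cells with none, MKI67 was at 49.5 CPM and 9.01% had them. The median depth was 4878 UMIs in the former and 2967 in the latter, and a deeper cell is more likely to show a marker. TOP2A was at 231 and 38.0 CPM, and CDC20 at 126 and 59.7 CPM. Pooled over libraries, the 868 B cells with 1 such UMI had 106 CPM of MKI67, 79.6 CPM of TOP2A and 126 CPM of CDC20. Library 3 held 424 of their 441 CDC20 UMIs, and 414 of the 423 in cells with none. Within libraries 3, 8, 9 and 11 CDC20 was at 234, 0, 22.6 and 0 CPM in cells with 1 such UMI. In cells with at least 2 it was at 278, 85.5, 83.9 and 97.0 CPM. Library 3 stood apart, since 19.9% of its B cells without such a UMI had at least 2 mitosis members, against 0.794%, 0.913% and 1.56% in libraries 8, 9 and 11.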

How the data were processed

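Members and lists were chosen with earlier results of these data known. The raw matrix deposited by the authors holds counts of UMIs and, per the file headers, comes from Cell Ranger 3.1.0. The submitters' processing notes also name Seurat 3.1. No genome build is named by the sources used here. The cells kept by the authors were read from the barcodes of their second deposited matrix, whose values were not used. Members given in full were those with the highest summed CPM over T and B cells in each role (up to 6 in S phase, 10 in mitosis, 3 broad) and the up to 8 with the smallest adjusted p in each comparison, and from the other lists the up to 6 with the smallest adjusted p. KIF23, CENPE, ASPM and other members named outside this rule were chosen after their values were seen. DUT was planned as an S-phase member, and the counts use the other 12.

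UMIs were summed per library and class, and tested with edgeR 4.0.16 (TMM, filterByExpr, glmQLFit, library as a block) with DESeq2 1.42.0 as an alternative, on libraries with at least 20 cells of each class. The SE was taken as the absolute log2 fold change divided by the square root of the quasi-likelihood F statistic. The fit was tested on simulated data with the same dispersion for all genes and no difference between libraries, unlike the real data. For CD8A against CD4 kinds, B against T and plasma against T cells, it recovered 87%, 97% and 95% of 4-fold changes. Of 2-fold changes it recovered 74%, 33% and 47%, with 6, 7 and 4 false calls. Cells of several gates were left out, and no doublet caller was run. The 12 libraries come from 8 colon samples, so some share an animal and p-values may be too small. Sequences of members are not used here.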

Additional observations from a re-analysis of the deposited data

Results flagged for a closer look

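Of 52 sets of library values examined, 2 had a library far from the rest, where chance alone gives about 1 in 20. Both concern library 2 (inferred graft, 65 B cells) in B against T cells. MCM2 had a log2 ratio of CPM plus 1 of -0.25 there, against 2.20 to 3.27 in the other 5 libraries, and MCM3 had -0.68 there, against 2.21 to 3.76.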

How the results depend on the processing

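Depth limits the rarer members: TK1 and GINS2 could not be tested in any comparison under the count filter. In plasma against T cells 19 members could not, and in CD8A against CD4 kinds 23 could not, 16 of them mitosis members. The inferred groups and the gates limit the rest. Promoter motifs were not run. With at least 100 T cells per library the host group held only library 1 and gave no value.

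Members called in CD8A against CD4 kinds were 0 higher and 0 lower, and 2 lower with no filter; leaving out each library gave 0 to 1 lower. Over all genes 483 were called, 765 with no filter, 262 with gates on thinned cells, and 342 to 469 leaving out each library. In B against T cells 30 members were higher, 26 with DESeq2, 21 without the deepest cells, 0 with cells of several gates kept and 21 to 31 leaving out each library, and over all genes 2187 to 3684. In plasma against T cells 10 members were lower, 26 with no filter, 5 with at least 50 cells, 21 with cells of several gates kept and 9 to 14 leaving out each library, and over all genes 3288 to 4205. With gates on thinned cells 1 was higher.

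In GVHD against healthy T cells the 23 higher and 0 lower became 4 and 2 with gates on thinned cells, 0 and 14 with cells of several gates kept, 9 and 2 with the T gate met thinned and at full depth, and 17 and 1 with no UMI of MS4A1 or CD79A, the last pair chosen after seeing the data, as was leaving out libraries 2 and 12. Leaving out each library gave 23 to 29 higher and 0 to 1 lower. These counts could not fall, since a gene without overlap stays so with fewer libraries.

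Reversed log2 fold changes, none past the threshold, were in CD8A against CD4 kinds HMGB2 at 0.001116 (no filter), 0.03108 (at least 50 cells), 0.05113 (gates on thinned cells) and 0.0801 (without the deepest cells), RRM1 at 0.4336 and TUBB at 0.1348 (gates on thinned cells), and RRM1 at 0.005842 and TUBB at 0.005038 (without the deepest cells). In B against T cells with cells of several gates kept they were CDK1 -0.01631, CENPF -0.7005, HMGB2 -0.6082, PCNA -0.3259, RRM1 -0.3003 and STMN1 -0.7667. In plasma against T cells RRM2 (main value -0.01) was 0.00637 (DESeq2 size factors), 0.2682 (DESeq2) and 0.924 (gates on thinned cells).

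Leaving out each library also reversed some uncalled members in CD8A against CD4 kinds, over ranges of -0.1706 to 0.08297 (HMGB2), -0.4607 to 0.04611 (MCM4), -0.03433 to 0.5432 (MCM7), -0.4185 to 0.2361 (MKI67), -0.1976 to 0.0129 (RRM1), -1.023 to 0.183 (RRM2), -0.161 to 0.3063 (STMN1) and -0.2938 to 0.1871 (TOP2A), and RRM2 in plasma against T cells, -0.523 to 0.5477. The cause was not tested.

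Shares with at least 2 mitosis members were 5.323% (T), 28.92% (B) and 2.176% (plasma) without thinning, 1.3%, 12.99% and 0.08058% for at least 3 members, and 11.72%, 33.02% and 2.82% for at least 1. Those with S-phase members were 9.596%, 28.12% and 7.333%, then 1.682%, 11.51% and 0.08058%, then 21.34%, 36.27% and 7.172%, and with gates on thinned cells 19.1% (B) and 1.435% (plasma). Leaving out each library gave mitosis shares of 1.84% to 2.842% (T), 11.76% to 21.08% (B) and 0.3311% to 0.8255% (plasma), and S-phase shares of 2.848% to 4.363%, 9.871% to 20.14% and 0.4967% to 1.061%.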

Other observations

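TYMS and RRM2, which both serve the supply of DNA precursors, did not keep a fixed ratio. Over T and B cells together, there were 5.84 UMIs of TYMS per 100 of RRM2 in library 5 (18 against 308 UMIs) and 6.01 in library 3 (105 against 1748), and 25.6 in library 8. The ratio was 40.1 in library 2, 46.3 in library 11, and 84.2 to 100 in libraries 1, 9, 10, 12 and 13. Libraries 3 and 5 were inferred to be of different groups. The 3 lowest DUT levels in T cells were in libraries 5, 6 and 3, at 47.0, 78.5 and 98.7 CPM, against 143 to 271 CPM in the other 8.

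T cells with a UMI of both CD8A and CD4 (330 cells, median 5129.5 UMIs, 174 of them in library 2) had pooled sums of 608 CPM for the S-phase and 478 CPM for the mitosis members, against 220.2 and 140 CPM in T cells with neither (5310 cells, median 2857.5 UMIs). After thinning, 7.27% (4.72 to 10.6) of the former and 1.62% (1.30 to 2.0) of the latter had at least 2 mitosis members. The order differed in library 1, where the mitosis sum was 34.7 CPM in cells with both. There it was 148 CPM in CD8A-kind, 106 CPM in CD4-kind and 57.9 CPM in cells with neither. In library 2 it was 659 CPM in cells with both against 419, 535 and 194 CPM. In library 5 (20 cells with both) it was 1198 CPM against 863, 412 and 262 CPM. In library 12 (29 cells with both) it was 579 CPM against 128, 542 and 82.3 CPM, and the intervals of 579 and 542 CPM overlapped. Doublets among these cells were not tested for.

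Among cells that met no gate, the share with at least 2 mitosis members was 24.5% (18.8 to 30.9) in library 1 and 18.4% (8.76 to 32.0) in library 6, both inferred host, and 2.50% to 8.62% in the libraries other than 1, 3 and 6. It was 32.2% (20.6 to 45.6) in library 3. By mitosis sum libraries 1 and 6 did not stand apart, with 520 and 551 CPM against 753, 513 and 507 CPM in libraries 12, 10 and 11. The sum was 1132 CPM in library 3 and 90.1 to 306 CPM in libraries 2, 5, 8, 9 and 13. Pooled, these cells had 8019 CPM of S100A8, 5608 of LYZ and 1035 of FABP1, against 485, 250 and 31.9 CPM in T cells. Which cell types held the mitosis members was not tested.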
